A study of Homo sapiens with 4 samples.

Results

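Heme is the iron-holding ring that carries oxygen in hemoglobin, and the genes described here are those of the enzymes that make it, ALAS1, ALAS2, ALAD, UROS, UROD, CPOX, PPOX and FECH, together with HMOX1. HMOX1 encodes heme oxygenase 1, which opens the heme ring, so it belongs to breakdown and not to synthesis. The 9 genes were taken by symbol from the deposited table of 58274 genes, and each had 1 row in it.

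The transcriptome was measured by RNA sequencing in 4 libraries of the human induced pluripotent stem cell line BC1. They came from undifferentiated BC1 cells, from APLNR+ mesoderm cells of day 2, from CD31+CD34+ hemogenic endothelial progenitors (HEPs) of day 5 and from CD43+ hematopoietic progenitor cells (HPCs) of day 8. Differentiation used activin A and BMP4, which were replaced by VEGF and bFGF after day 2, and no erythropoietin is named in the labels. All libraries share 1 cell line and each population had 1 library, so no difference has a replicate check and no p-value is given. Values are the deposited FPKM, fragments scaled to transcript length and to the number of mapped fragments. The sorting markers were high in the populations sorted on them, and some stayed high in later ones. APLNR was at 1073 FPKM in APLNR+ cells and at 0.782 in BC1. In CD31+CD34+ cells, PECAM1 (CD31) was at 93.1 FPKM and CD34 at 102, and both were below 1 FPKM in BC1 and APLNR+. SPN (CD43) was at 92.4 FPKM in CD43+ cells and at 11.7 in CD31+CD34+ cells. PECAM1 was at 126.5 FPKM and CD34 at 42.55 in CD43+ cells, and APLNR was at 209 in CD31+CD34+ cells. The libraries held about 19700000 to 23600000 mapped fragments, and from 13554 to 14335 genes reached 1 FPKM.

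Heme synthesis begins and ends in mitochondria. ALAS1 and ALAS2 are alternative enzymes for the entry step, the joining of glycine and succinyl-CoA to 5-aminolevulinate; ALAS1 serves cells in general and ALAS2 is the enzyme of red cell precursors, with a messenger RNA whose translation depends on iron. ALAD, UROS and UROD act on the ring and its precursors in the cytosol, CPOX and PPOX oxidize it in mitochondria, and FECH, ferrochelatase, inserts the iron. In red cell precursors the pathway feeds globin, and GATA1 is a known activator of several of its genes.

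The sequences before the start sites of ALAS2, CPOX and ALAS1 are shown because ALAS2 and CPOX had the largest differences in level between BC1 and CD43+ cells and ALAS1 the smallest difference in log2 level. They are the 250 bases before the RefSeq start (GRCh38.p14), 5′ to 3′ on the strand of the gene, at chrX:55030978-55031227 on the minus strand for ALAS2, chr3:98593612-98593861 on the minus strand for CPOX and chr3:52197833-52198082 on the plus strand for ALAS1. Capitals mark TTATCT, which reads AGATAA on the other strand, a string that GATA factors can bind.
ALAS2: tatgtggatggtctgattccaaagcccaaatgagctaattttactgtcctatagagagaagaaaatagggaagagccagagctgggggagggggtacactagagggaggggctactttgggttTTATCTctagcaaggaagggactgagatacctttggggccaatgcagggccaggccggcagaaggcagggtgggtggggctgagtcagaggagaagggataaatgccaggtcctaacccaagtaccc
CPOX: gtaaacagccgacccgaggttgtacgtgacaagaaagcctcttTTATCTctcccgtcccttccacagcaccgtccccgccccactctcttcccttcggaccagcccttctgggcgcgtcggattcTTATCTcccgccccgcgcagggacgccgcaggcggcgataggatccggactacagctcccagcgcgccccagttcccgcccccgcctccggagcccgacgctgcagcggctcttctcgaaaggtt
ALAS1: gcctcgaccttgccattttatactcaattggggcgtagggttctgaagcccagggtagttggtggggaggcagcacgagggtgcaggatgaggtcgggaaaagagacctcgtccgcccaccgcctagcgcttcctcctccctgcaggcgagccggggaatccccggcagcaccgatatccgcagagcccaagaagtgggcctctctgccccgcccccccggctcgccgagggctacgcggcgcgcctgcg
In ALAS2 the string lay 127 to 122 bases before the start, and in CPOX 1 copy lay 207 to 202 and another 125 to 120 bases before it. The ALAS1 window held none of the 4 strings searched on both strands, which were AGATAA and its forms with T as the first letter, G as the last or both. Of 35116 RefSeq windows of this length, 9.17% held AGATAA and 22.3% held at least 1 of the 4 strings. Windows were at hand for 7 of the 9 genes (9 windows, not for UROS and HMOX1), and 4 of these genes, ALAS2, CPOX, PPOX and ALAD, held at least 1 of the strings. PPOX held AGATAA 63 to 58 bases before its second listed start, and ALAD held AGATAG 68 to 63 bases before its first. UROD and FECH held none. The ALAS2 window also held 2 overlapping copies of CCACCC, on the other strand, at 60 to 55 and 56 to 51 bases before the start. It held a match to TGACNNNGC at 49 to 41 bases before the start. CCACCC also stood 188 to 183 bases before the second listed start of PPOX, and TGACNNNGC 38 to 30 bases before the only listed start of FECH. These strings stood in 31.3% and 10.9% of all windows. The annotated span of ALAS2 and CPOX in GENCODE release 29 reaches into the printed windows, to positions 55031064 and 98593723. The strings named for PPOX and ALAD lie within the annotated spans of these genes, whose 5′ ends are at 161166410 and 113401333. A match is a string of letters, and no binding was measured.

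Across the 4 populations, most genes of the pathway had their highest level in CD43+ cells. This held for 7 of the 9 genes, though for ALAD CD43+ and CD31+CD34+ cells did not differ beyond counting error at the median length of its coding transcripts. The share of all genes that were highest in CD43+ cells was not computed, so this count has no background beside it. In such bulk samples a larger share of cells that use a gene and more of its RNA in each cell cannot be told apart. ALAS1 was highest in CD31+CD34+ cells and HMOX1 in BC1. A gene is said to have risen or fallen where log2(FPKM + 1) differed by at least 1 between 2 libraries. Over the step from CD31+CD34+ to CD43+ cells, 5 of the 9 genes rose (ALAS2, UROS, UROD, CPOX and FECH) and 0 fell, beside 7.63% of all 17137 genes with at least 1 FPKM in any library that rose and 13.5% that fell. Their median difference was 1.44 on this log2 scale, and that of all genes was -0.08. Earlier steps had fewer such genes. From BC1 to APLNR+ cells, UROD rose and HMOX1 fell, beside 9.15% of all genes rising and 9.32% falling, so that 1 of 9 in either direction was near the background. The step from APLNR+ to CD31+CD34+ cells had 2 genes that rose, ALAS2 and CPOX, and 1 that fell, UROD, beside 13.0% and 11.4% of all genes. Between the ends of the course, BC1 and CD43+, 6 of 9 rose and 0 fell, beside 15.2% and 18.9% of all genes. With a threshold of 2 in place of 1, 0 genes rose or fell from BC1 to APLNR+ (2.68% of all genes rose and 2.29% fell) and 0 from APLNR+ to CD31+CD34+ cells (4.08% and 3.15%). At the step to CD43+ cells only ALAS2 passed it (2.28% and 4.32%), and between BC1 and CD43+ cells ALAS2, UROD and CPOX rose by at least 2 (5.37% and 6.77%). All 9 genes passed the filter of 1 FPKM. ALAS2 was below it in BC1 and in APLNR+ cells and passed through its levels in the later populations.

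**Figure D1:**
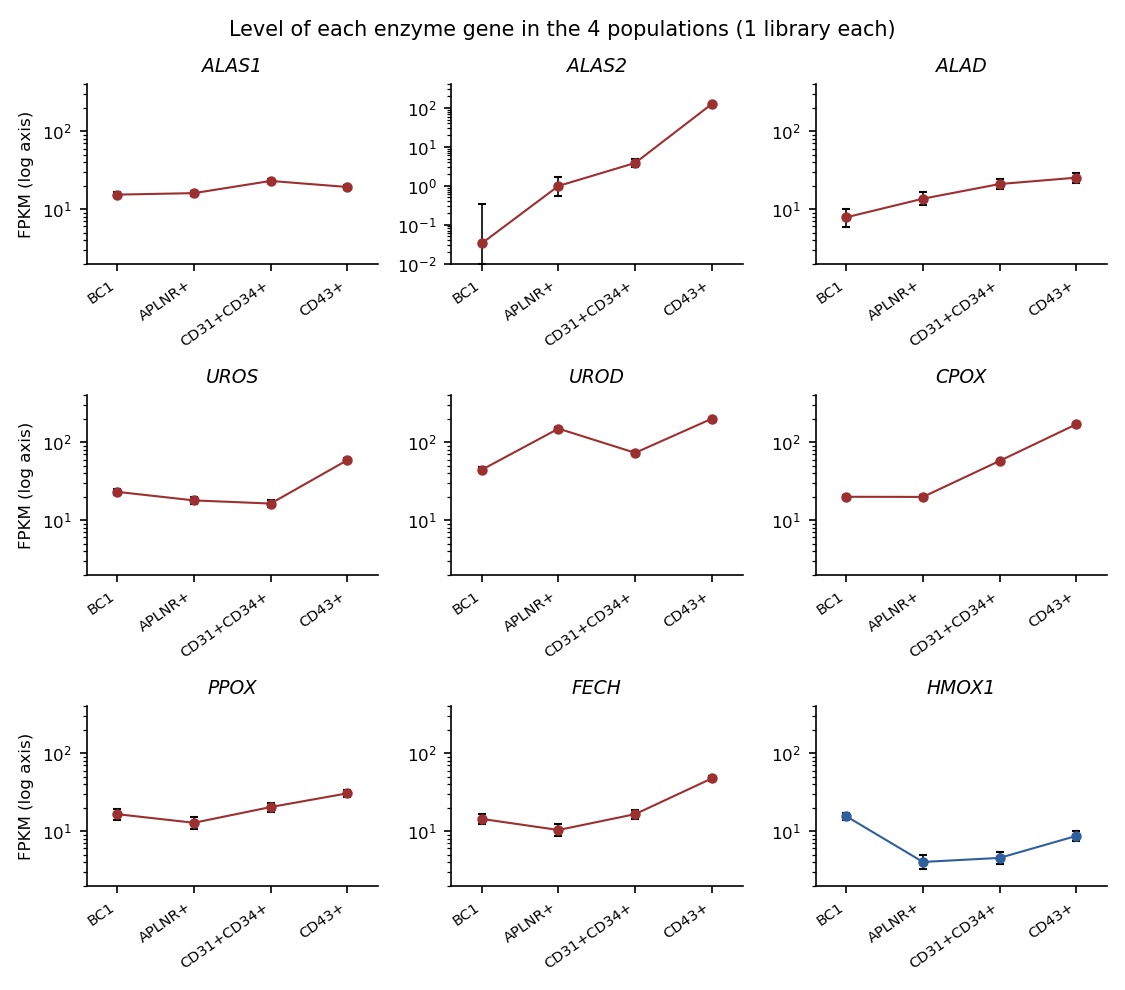
FPKM of each gene on a log axis in the 4 populations, 1 library each, with 95% counting intervals as bars; ALAS2 has its own axis range, and its lowest bar is cut at the axis. ALAS2 climbed from 0.0331 to 126 FPKM, while ALAS1 stayed between 15.4 and 23.1 FPKM.

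**Figure D2:**
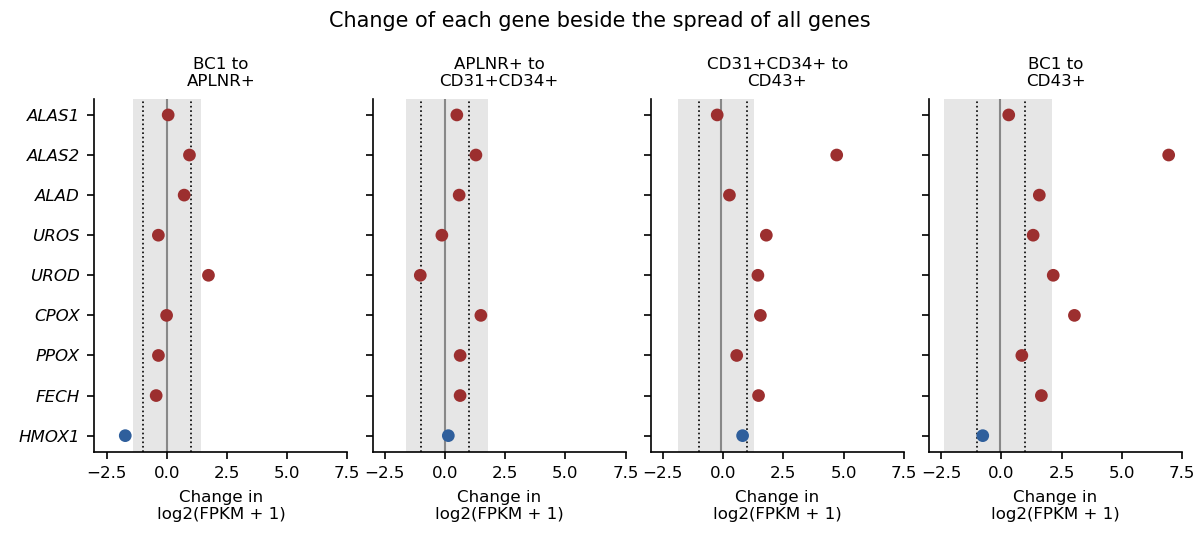
Difference in log2(FPKM + 1) of each gene at the 3 steps and between BC1 and CD43+ cells; red points are synthesis enzymes and the blue point is HMOX1. Grey bands span the 5th to 95th percentile of all 17137 genes, the grey line is their median and dotted lines stand at -1 and 1; in the step to CD43+ cells ALAS2 lies at 4.72 and the upper end of the band at 1.28.

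The libraries differed most in the entry step. ALAS2 (chromosome X, 55009055 to 55031064, minus strand) was at 0.0331 FPKM in BC1, 0.988 in APLNR+ cells, 3.85 in CD31+CD34+ cells and 126 in CD43+ cells. The level in BC1 was below that of 3 fragments (0.218 FPKM in that library), so ratios to BC1 were taken against that floor, which gave at least 4.53-fold higher in APLNR+, at least 17.7-fold in CD31+CD34+ and at least 580-fold in CD43+ cells. The floor leaves out the counting error of the later library, and the 95% counting intervals of the ratios themselves began lower, at 2.57, 11.2 and 379. With the shortest coding transcript the interval for APLNR+ cells began at 0.667 and so included 1. Each level was above the one before. On the log2(FPKM + 1) scale the difference between BC1 and APLNR+ cells was 0.94, under the threshold, and with a pseudocount of 0.1 it was 3.03. The level in CD31+CD34+ cells was 3.90-fold that in APLNR+ cells (95% counting interval 2.18 to 7.42), and the level in CD43+ cells was 32.8-fold that in CD31+CD34+ cells (25.5 to 43.0). About 14.8 fragments stood behind the value in APLNR+ cells and about 1840 behind that in CD43+ cells. Among all genes that passed the filter, ALAS2 moved from percentile 4.2 in BC1 to 18.5, 38.0 and 95.8 in the later populations. The gene overlaps the end of APEX2 on the other strand by a few bases; APEX2, a DNA repair enzyme, was at 9.80, 14.4, 11.9 and 19.8 FPKM.

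ALAS1 (chromosome 3, 52198086 to 52214327, plus strand) was at 15.4 FPKM in BC1, 16.1 in APLNR+ cells, 23.1 in CD31+CD34+ cells and 19.3 in CD43+ cells. Its highest value was 1.50-fold its lowest, a difference of 0.56 on the log2 scale and the smallest range of the 9 genes. BC1 and APLNR+ cells did not differ beyond counting error (1.05-fold, 0.933 to 1.17). CD31+CD34+ cells were 1.43-fold above APLNR+ cells (1.30 to 1.58), and CD43+ cells were 1.20-fold below CD31+CD34+ cells (1.09 to 1.32). With the shortest coding transcript both of these intervals included 1. The balance of both entry enzymes therefore turned over between the last 2 populations. FPKM of ALAS1 was 465-fold that of ALAS2 in BC1, 16.3-fold in APLNR+ and 5.99-fold in CD31+CD34+ cells. In CD43+ cells ALAS2 was 6.56-fold above ALAS1 and made up 86.8% of their summed FPKM, against 14.3% in CD31+CD34+ cells. The sum itself was 15.4 FPKM in BC1, 17.1 in APLNR+ cells, 26.9 in CD31+CD34+ cells and 146 in CD43+ cells.

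The cytosolic enzymes had separate courses. ALAD (chromosome 9, 113386317 to 113401333, minus strand), which condenses 5-aminolevulinate to porphobilinogen, was at 7.86 FPKM in BC1, 13.6 in APLNR+ cells, 21.0 in CD31+CD34+ cells and 25.4 in CD43+ cells. It was higher at each stage than at the one before, and most of the difference came before the CD43+ stage. The ratios were 1.73 (1.25 to 2.42), 1.54 (1.21 to 1.97) and 1.21, the last with an interval of 0.981 to 1.49 that includes 1. CD43+ cells were 3.23-fold above BC1 (2.40 to 4.40).

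UROS (chromosome 10, 125784980 to 125823285, minus strand), which closes the ring in its natural form, was at 23.1 FPKM in BC1, 17.9 in APLNR+ cells, 16.4 in CD31+CD34+ cells and 59.1 in CD43+ cells. Its levels in both middle populations were below that in BC1. APLNR+ cells were 1.29-fold below BC1 (1.12 to 1.48), CD31+CD34+ and APLNR+ cells did not differ beyond counting error (ratio 0.911, 0.786 to 1.06), and CD43+ cells were 3.62-fold above CD31+CD34+ cells (3.21 to 4.08). After ALAS2, this was the largest ratio among the 9 genes at this step.

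UROD (chromosome 1, 45012147 to 45015575, plus strand), which removes carboxyl groups from the ring, was at 44.4 FPKM in BC1, 150 in APLNR+ cells, 73.4 in CD31+CD34+ cells and 201 in CD43+ cells. It was the most abundant of the 8 synthesis genes in every library and the only 1 of them past the threshold at the mesoderm stage (ALAS2 also passed it with a pseudocount of 0.1). The ratios were 3.38 from BC1 to APLNR+ cells (3.11 to 3.67), 2.05-fold lower in CD31+CD34+ cells (1.92 to 2.18) and 2.74-fold higher again in CD43+ cells (2.58 to 2.92). All 4 levels differed beyond counting error, and CD43+ cells were 1.34-fold above APLNR+ cells (1.27 to 1.41). The fall in CD31+CD34+ cells, -1.02 on the log2 scale, was just past the threshold, and it was -0.995 after rescaling without mitochondrial-encoded and globin genes.

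The enzymes of the mitochondrial end were all highest in CD43+ cells. CPOX (chromosome 3, 98579446 to 98593723, minus strand), coproporphyrinogen oxidase, was at 20.0 FPKM in BC1, 19.9 in APLNR+ cells, 57.8 in CD31+CD34+ cells and 171 in CD43+ cells. BC1 and APLNR+ cells did not differ beyond counting error (ratio 0.997, 0.913 to 1.09). Both later steps were of like size, 2.90-fold (2.71 to 3.11) and 2.95-fold (2.84 to 3.07), and CD43+ cells were 8.55-fold above BC1 (8.01 to 9.14). Only ALAS2 had a larger difference between those libraries among the 9 genes. The deposited row begins at 98521132 and also covers a second gene that GENCODE release 29 annotates there, AC021660.3, on the same strand and with no row of its own, so its fragments may be counted in the value of CPOX.

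PPOX (chromosome 1, 161166410 to 161178013, plus strand), protoporphyrinogen oxidase, was at 16.5 FPKM in BC1, 12.8 in APLNR+ cells, 20.4 in CD31+CD34+ cells and 30.6 in CD43+ cells. No step reached the threshold. APLNR+ cells were 1.29-fold below BC1 (1.02 to 1.63), and the next ratios were 1.59 (1.29 to 1.98) and 1.50 (1.26 to 1.78). PPOX overlaps B4GALT3, a sugar transferase gene on the other strand, which was at 22.1, 31.2, 40.2 and 31.6 FPKM in the same order. The use of strand in counting is not given in the sources used here, so reads of the shared span cannot be told apart.

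FECH (chromosome 18, 57548283 to 57586772, minus strand) was at 14.4 FPKM in BC1, 10.3 in APLNR+ cells, 16.5 in CD31+CD34+ cells and 47.6 in CD43+ cells. Its low point was in mesoderm, 1.39-fold below BC1 (1.09 to 1.77). CD31+CD34+ cells were 1.60-fold above APLNR+ cells (1.28 to 2.01) and did not differ from BC1 beyond counting error (1.15-fold, 0.933 to 1.42). The level in CD43+ cells was 2.88-fold that in CD31+CD34+ cells (2.45 to 3.39). How reads were shared between FECH and its pseudogene FECHP1 is not given in the sources used here.

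Set side by side along the pathway, the levels spread differently in each library. In BC1, 7 synthesis genes lay between 7.86 and 44.4 FPKM and ALAS2 was near 0. In CD43+ cells all 8 lay between 19.3 and 201 FPKM, in the order UROD, CPOX, ALAS2, UROS, FECH, PPOX, ALAD and ALAS1. The median of the 8 was 15.9 FPKM in BC1, 14.9 in APLNR+ cells, 20.7 in CD31+CD34+ cells and 53.4 in CD43+ cells. ALAS1 thus went from the middle of the order in BC1 to its end in CD43+ cells.

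**Figure D3:**
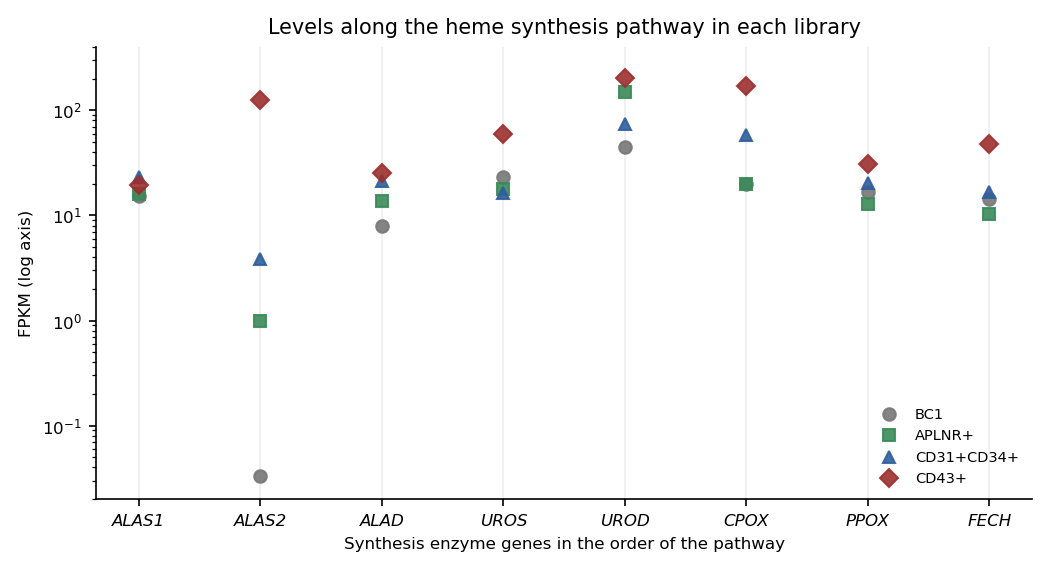
FPKM on a log axis of the 8 synthesis enzyme genes in the order in which they act, 1 point for each library. The points of CD43+ cells are the highest for 7 genes, and for ALAS1 that of CD31+CD34+ cells is, at 23.1 FPKM.

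HMOX1 (chromosome 22, 35380361 to 35394214, plus strand) had a course unlike that of the synthesis genes. It was at 15.5 FPKM in BC1, 4.02 in APLNR+ cells, 4.53 in CD31+CD34+ cells and 8.68 in CD43+ cells. APLNR+ cells were 3.87-fold below BC1 (3.07 to 4.90), and APLNR+ and CD31+CD34+ cells did not differ beyond counting error (1.13-fold, 0.853 to 1.49). CD43+ cells were 1.92-fold above CD31+CD34+ cells (1.52 to 2.43) and stayed 1.79-fold below BC1 (1.50 to 2.14). BACH1, a repressor of HMOX1, was at 14.0, 4.87, 7.70 and 7.85 FPKM, and NFE2L2, an activator of it, at 7.97, 10.5, 10.1 and 10.1. From BC1 to APLNR+ cells BACH1 differed by -1.35 on the log2 scale, and the range of NFE2L2 over the 4 libraries was 0.35. These are RNA levels, protein was not measured, and the part of either regulator in the level of HMOX1 was not tested. HMOX1 is also a gene of macrophages. Of 10 macrophage genes 8 passed the filter, and their summed level (all 10) was 6.28, 13.9, 29.2 and 44.8 FPKM in the 4 libraries. From CD31+CD34+ to CD43+ cells CD68 and CSF1R rose, MRC1 fell and 5 did not pass the threshold. CD68 was at 5.89 FPKM in CD31+CD34+ and 21.6 in CD43+ cells, CSF1R at 0.759 and 8.80, LYZ at 6.89 and 12.7, and MRC1 at 13.8 and 0.433. In CD43+ cells CD14, C1QA, C1QB, C1QC and CD163 were at or below 0.637 FPKM and MARCO was at 0. Their part in the level of HMOX1 was not tested.

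Among the other genes that handle heme, breakdown and transport differed from gene to gene. Of 8 genes of heme export, import and breakdown, 1 rose (BLVRB) and 1 fell (FLVCR2) from CD31+CD34+ to CD43+ cells, with a median of -0.09. BLVRB, a biliverdin reductase, was at 27.2, 28.4, 31.6 and 195 FPKM. FLVCR2, a membrane transporter, was at 5.42, 12.3, 11.7 and 0.0803 FPKM, its lowest level in CD43+ cells. FLVCR1, a heme exporter, was at 23.3, 13.8, 6.93 and 8.41 FPKM, and SLC48A1, which moves heme out of endosomes, at 7.08, 4.38, 20.7 and 23.8. HMOX2, the second heme oxygenase, lay between 18.8 and 26.7 FPKM in all libraries. Enzyme activity was not measured.

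Substrates and intermediates of the pathway cross membranes, and 11 genes of mitochondrial import and porphyrin transport all passed the filter. From CD31+CD34+ to CD43+ cells 2 of them rose, SLC25A37 and ABCB6, and 0 fell, with a median of -0.01. SLC25A37, mitoferrin 1, the iron importer of red cell precursors, was at 13.6, 20.9, 36.6 and 124 FPKM, higher at every stage. SLC25A38, a mitochondrial glycine importer, was at 19.3, 17.9, 8.48 and 9.79 FPKM, lower in the last 2 populations. ABCB6, a porphyrin transporter, was at 14.5, 36.9, 22.9 and 62.6 FPKM, the same zigzag as UROD. PGRMC1, which binds FECH, was at 152, 93.4, 52.5 and 51.6 FPKM, and SLC25A39, a glutathione importer, at 147, 164, 61.5 and 58.5; both fell between BC1 and CD43+ cells. Over that whole span 5 of the 11 rose and 2 fell, beside the 15.2% and 18.9% of all genes given above.

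Both transferrin receptor genes were lowest in CD31+CD34+ cells. TFRC, the transferrin receptor, was at 34.3 FPKM in BC1, 34.4 in APLNR+ cells, 4.61 in CD31+CD34+ cells and 50.4 in CD43+ cells, a fall of 2.66 and then a rise of 3.20 on the log2 scale. TFR2, a second transferrin receptor, was at 6.12, 9.54, 2.25 and 10.2 FPKM. The iron exporter SLC40A1 was at 0.462, 11.3, 2.54 and 91.5 FPKM. It was likewise lower in CD31+CD34+ cells than in the populations before and after. NCOA4, which delivers ferritin for breakdown, was at 18.0, 22.5, 50.3 and 101 FPKM. The ferritin genes differed less. FTH1 was at 956, 1055, 937 and 1804 FPKM and FTL at 782, 970, 1370 and 1406. Of 11 genes of iron uptake, storage and export, 10 passed the filter (FTMT was listed at 0 in every library), and from CD31+CD34+ to CD43+ cells 3 rose (TFRC, TFR2 and SLC40A1) and 0 fell, with a median of 0.89. In the step before it, 1 of the 10 rose (NCOA4) and 4 fell (the same 3 genes and STEAP3, an iron reductase), with a median of -0.26.

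**Figure D4:**
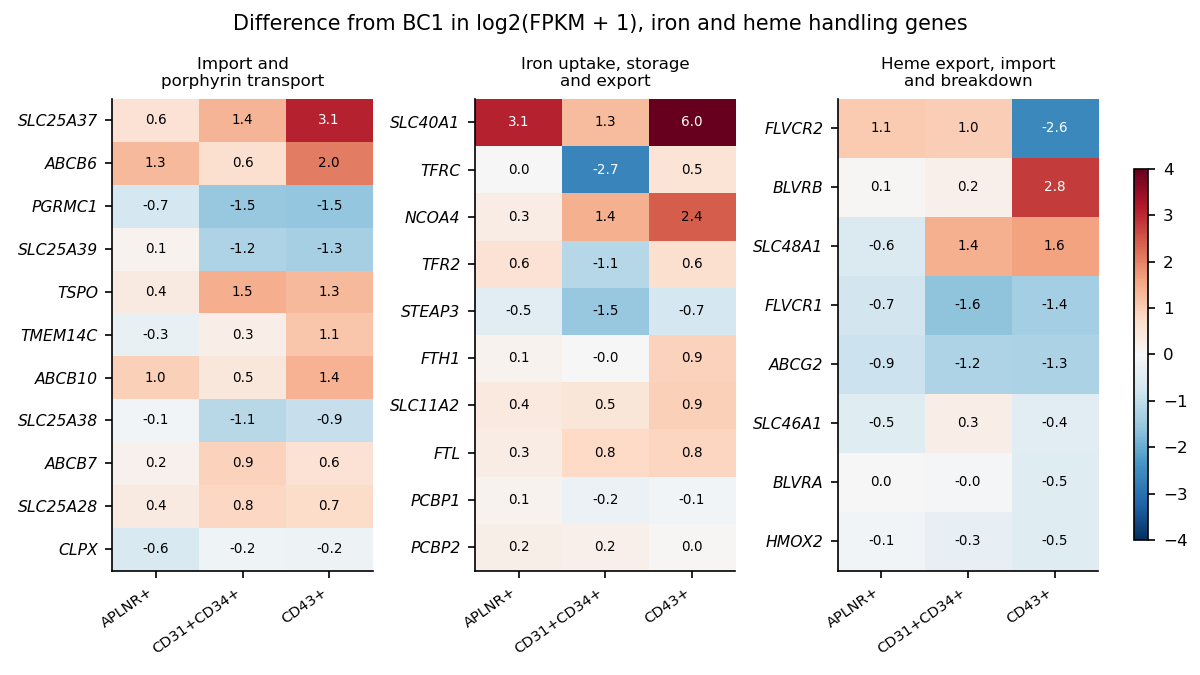
Heat maps of the difference from BC1 in log2(FPKM + 1), printed in each cell, for the genes of 3 lists that passed the filter; columns are the other 3 populations and colors saturate at -4 and 4. SLC40A1 at 5.98 and SLC25A37 at 3.09 are the highest in CD43+ cells, and TFRC at -2.65 is the lowest in CD31+CD34+ cells.

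Of 17 regulators 16 passed the filter, and 8 of these rose between BC1 and CD43+ cells, 0 fell and 5 had a lower value in CD43+ cells. GATA1 had 0 FPKM in both BC1 and APLNR+ cells, 13.4 in CD31+CD34+ cells and 190 in CD43+ cells. KLF1, which binds CACCC strings, was at 0.191, 7.39, 17.9 and 68.7 FPKM, and NFE2 at 1.13, 0.559, 12.6 and 235. GATA2 was at 0.126, 32.0, 254 and 211 FPKM and TAL1 at 0, 0.0608, 71.2 and 184. GATA2 thus reached its level before the last step, whereas GATA1, KLF1 and NFE2 rose both at it and at the step before. The largest rise of KLF1 came earlier, from BC1 to APLNR+ cells (2.82 on the log2 scale, then 1.17 and 1.88). From CD31+CD34+ to CD43+ cells 5 of the 16 rose and 0 fell, with a median of 0.35, and 6 had a lower value.

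Erythroid and megakaryocytic markers were also higher in CD43+ cells. Of 12 erythroid markers 10 passed the filter, and 8 of these rose from CD31+CD34+ to CD43+ cells; the summed level of the 12 was 9.37, 39.7, 112 and 757 FPKM. GYPB, a glycophorin, was at 304 FPKM in CD43+ cells and at 0 in BC1, whereas the markers of later red cell precursors SLC4A1 and EPB42 were at 1.50 and 0.511 FPKM in CD43+ cells and TSPO2 at 0. All 11 genes of the globin list rose at this step, with a median of 6.05. In CD43+ cells embryonic HBE1 was at 5271 FPKM, fetal HBG2 at 5256, embryonic HBZ at 474, alpha-globin HBA2 at 417 and delta-globin HBD at 249.7. Adult beta-globin HBB was at 6.36 FPKM and AHSP, an alpha-globin chaperone, at 3.08. The rise of AHSP rests on about 5.25 fragments in CD43+ cells against 0 in CD31+CD34+ cells. AHSP was at 2.35 FPKM in BC1, from which CD43+ cells did not differ beyond counting error (ratio 1.31, 0.311 to 5.62). Near-identical genes of these families share reads, so the split between copies such as HBA1 and HBA2 is uncertain, and the same holds for GYPB. Megakaryocytic markers also rose (9 of 10, with VWF falling), and their summed level was 14.4, 5.96, 108 and 3680 FPKM. This sum was higher in CD43+ cells than that of the erythroid markers, with PF4 at 1674 FPKM and ITGA2B at 982. The erythroid list holds no globins, so the order of the sums depends on the lists and does not compare the lineages. ALAS2 is an erythroid gene, while UROS, CPOX and FECH are used in all cells, and the part of each lineage in their levels was not tested. Endothelial markers fell at this step in 7 of 8 cases, with a median of -3.29. Pluripotency markers fell in 6 of 6 cases from BC1 to APLNR+ cells, and 5 of 5 mesoderm markers rose. Hepatocyte markers rose in 3 of 5 cases from BC1 to APLNR+ cells, the step at which UROD rose, and had a summed level of 53.2, 111, 27.3 and 22.6 FPKM in the 4 libraries. Their part in the levels of the synthesis genes was not tested.

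The counting intervals used the median length of each gene's coding transcripts. With the shortest transcript, 12 of the 36 ratios over the 4 comparisons had an interval that includes 1, with the longest 3, and as given 5. With the longest, the intervals of ALAD from CD31+CD34+ to CD43+ cells (1.12 to 1.30) and UROS from APLNR+ to CD31+CD34+ cells (0.838 to 0.991) excluded 1. Outside these comparisons, so did that of FECH from BC1 to CD31+CD34+ cells (1.06 to 1.25). With the shortest, every interval of ALAS1 included 1, as did those of UROS, PPOX and FECH from BC1 to APLNR+ cells.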

How the data were processed

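RNA was extracted with Trizol and made into libraries with an Illumina TruSeq RNA kit, per the labels. The authors deposited 1 table of FPKM per gene (fragments scaled to transcript length and to mapped fragments), with 58365 rows for 58274 gene identifiers; rows of the same identifier were summed. The submitters' processing notes name BWA, Bowtie, RSEM and hg19, but 55629 of 55647 identifiers found with the same version in GENCODE release 29 lay at its GRCh38 coordinates, which are the ones printed, counted from 1. Strand use and tool versions are not given in the sources used here.

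The unit is not a count, so no count test was run. Differences were taken in log2(FPKM + 1), which understates changes of low genes, over the 17137 genes that reached 1 FPKM in any library. Mapped fragments were estimated from the steps between low values (83.8% to 85.9% of those used lay within 0.1 of a whole number). Fragments per gene then gave exact Clopper-Pearson 95% intervals of ratios and a floor of 3 fragments per library, which cover counting error only. The calculation was tested on simulated data. The genes and lists were chosen with earlier results of these data known. All 9 genes were named, and from the other lists those with the widest range of log2 level (at most 4 a list) and 9 by symbol; others named (AC021660.3, B4GALT3, APEX2, HMOX2, STEAP3, TALDO1 and single markers) were chosen after their values were seen. Some genes that the rule or the pathway would name are not reported here. A planned protein comparison of ALAS1 and ALAS2 was not run. Python 3.11.15, numpy 2.4.6, pandas 2.3.3, scipy 1.17.1 and matplotlib 3.10.9 were used.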

Additional observations from a re-analysis of the deposited data

How the results depend on the processing

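Each population had 1 library, so spread between cultures and sorts is unknown and no replicate could be left out. No paired analysis was possible because the result comes from no test and each population had 1 library. Alternatives were a pseudocount of 0.1 FPKM, no filter or one of 5 FPKM, median-ratio scaling, rescaling without mitochondrial-encoded and globin genes, leaving out HMOX1, the mean in place of the median, and a threshold of 2. Of 108 differences of single genes recomputed, 0 changed sign and 2 crossed the threshold: ALAS2 from BC1 to APLNR+ cells, 0.94 and 3.03 with the pseudocount of 0.1, and UROD from APLNR+ to CD31+CD34+ cells, -0.995 after rescaling. Without HMOX1 the count of genes that rose or fell from BC1 to APLNR+ cells was 1 in place of 2. With a threshold of 2 the counts were 0 from BC1 to APLNR+, 0 from APLNR+ to CD31+CD34+, 1 from CD31+CD34+ to CD43+ and 3 from BC1 to CD43+ cells, in place of 2, 3, 5 and 6. Median-ratio scaling moved the median of the step to CD43+ cells from 1.44 to 1.55, with UROD at 1.55 and CPOX at 1.65, and moved the median of all genes there from -0.08 to 0.00 (-0.002). Ratios whose interval includes 1 numbered 12 with the shortest and 3 with the longest coding transcript, in place of 5. Depth limits ALAS2 in BC1, where under 3 fragments were seen.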

Other observations

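Genes that use or sense iron and heme elsewhere in the cell had differences of varied size and direction. Of 10 genes of iron sensing and iron-sulfur cluster assembly, 2 rose and 1 fell at the step to CD43+ cells, with a median of -0.04. Of all genes 7.63% rose and 13.5% fell at this step, with a median of -0.08. HSPA9, a mitochondrial chaperone, was at 134, 95.6, 38.2 and 90.5 FPKM in BC1, APLNR+, CD31+CD34+ and CD43+ cells, lowest in CD31+CD34+ cells as TFRC was. ACO1, an iron sensor, was at 19.8, 20.9, 13.3 and 6.31 FPKM, and FBXL5, which marks iron regulatory proteins for breakdown, at 17.7, 15.8, 23.8 and 9.13, both lowest in CD43+ cells. Of 8 genes of heme A synthesis and heme proteins, 2 rose and 0 fell at this step, with a median of 0.40. They were CAT, catalase, at 5.89, 5.48, 9.43 and 34.9 FPKM, and CYCS, cytochrome c, at 169, 168, 69.8 and 146.

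Of 10 other NFE2L2 target genes, 3 rose and 1 fell at the step to CD43+ cells, with a median of 0.31. NQO1, a quinone reductase, was at 25.8, 55.6, 24.0 and 1.98 FPKM and ME1, malic enzyme, at 0.849, 2.08, 5.48 and 12.7. SLC7A11, a cystine transporter, was at 4.13, 1.61, 0.167 and 0.247 FPKM and SRXN1, sulfiredoxin, at 12.2, 7.52, 4.04 and 3.82. TALDO1, transaldolase, was at 136, 81.7, 82.9 and 213 FPKM. Its levels in APLNR+ and CD31+CD34+ cells did not differ beyond counting error (ratio 1.015, 0.952 to 1.08). NQO1 fell at the step to CD43+ cells, and ME1 and TALDO1 were among those that rose.

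The protein-coding genes with the course most like that of each gene over the 4 libraries were named by the root mean squared difference of centred log2(FPKM + 1), among 13909 others. For ALAS2 they were TYROBP (0.31), FOS (0.32) and ZBTB16 (0.37), which is a loose match. ALAS1 was nearest to LPCAT4 (0.02), TSC1 (0.03) and RPS6KA4 (0.03), and UROD to APOBEC3C (0.09), the porphyrin transporter ABCB6 (0.17) and MAFG (0.17). CPOX was nearest to CSF2RB, DDX60L and TMIGD2, FECH to PDLIM1, ARMC8 and KIAA0513, and UROS to SIGLEC10, SPX and PKHD1L1. ALAD was nearest to PDIA5, NICN1 and NUDT8, PPOX to C14orf2 and BLZF1, and HMOX1 to TRERF1, ITPR2 and AIG1. The genes named for CPOX and UROS were all below 1 FPKM in BC1, where this scale understates ratios, so their ratios differ from those of CPOX and UROS. CSF2RB was at 0.0703 FPKM in BC1 and 7.63 in CD43+ cells. SPX was at 0.0213 FPKM in CD31+CD34+ cells and 2.96 in CD43+ cells.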
